A study of Mus musculus with 6 samples.

Results

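The genes described here encode the subunits of the integrins and the chains of the laminins, measured in mouse skin tumours on 1-colour Agilent arrays. Members were all array genes whose name begins with Itga or Itgb and a digit, the lettered leukocyte and αv integrin genes (Itgad, Itgae, Itgal, Itgam, Itgav and Itgax), and genes whose name begins with Lama, Lamb or Lamc and a digit. The rule found 39 genes with 97 probes among the 36994 named features of the array, and 36 of the 39 entered the genotype test among 19744 features. Itga2b, Itgad and Itgb2l did not, because their probes were well above background on at most 1 of the 6 arrays. One of the 36, Itgb3bp, fits the letters of the rule but encodes a protein that binds the β3 tail and not a subunit, which leaves 24 integrin and 11 laminin genes.

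The 2 groups were 3 skin tumours labelled P2ry6-/-, lacking the UDP receptor P2Y6, and 3 skin tumours labelled P2ry6+/+. All 6 came from male mice whose shaved backs were painted 1 time with the carcinogen DMBA (195 nmol) and then, up to week 22, with the promoter TPA (16 nmol, 2 times a week). The protocol treated 12 mice of each genotype. The labels do not say whether the 3 tumours of a genotype came from separate mice, so the p-values describe the spread between these tumours.

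Between 54.2 and 56.1% of the non-control spots were well above background in the labelled knockout tumours and 56.3 to 59.4% in the labelled wild-type tumours, and no spot was saturated. Array number, 3 a genotype, limits the precision. P2ry6 itself was not lower in the labelled knockout tumours. Its brighter probe (mm9 chr7:108086152-108086211) read 0.57, 0.70 and 0.45 in the labelled knockout tumours, against 0.38, 0.33 and -0.21 in the labelled wild-type tumours, in log2 units relative to each array's 75th percentile (difference 0.41, exact two-sided permutation p = 0.1, the smallest that 3 against 3 allows). Which part of the gene was deleted is unknown here, so neither P2ry6 probe checks the genotype labels. Basal keratinocyte markers were well above background in all 6 tumours (5 of 5 genes). Means of markers of other skin structures differed in direction by list: 10 of 10 skeletal muscle, 9 of 9 hair follicle, 6 of 6 sebaceous gland and 5 of 6 adipocyte markers averaged lower in the labelled knockout tumours, while 6 of 6 fibroblast, 6 of 6 neutrophil and 4 of 4 general leukocyte markers averaged higher. Of these, 2 adipocyte markers (Adipoq and Cfd) and 1 muscle marker (Myh4) had a limma adjusted p under 0.05, and none of the hair follicle, sebaceous, fibroblast, neutrophil or leukocyte markers did. Adipoq, Cfd and Myh4 entered the test only through the labelled wild-type tumours. In all, 6 muscle, 2 adipocyte and 1 sebaceous marker failed to clear background in every labelled knockout tumour, so the sizes of their differences depend on signals near background. At an unadjusted p under 0.05 the counts were 10 muscle, 5 hair follicle, 6 sebaceous, 4 adipocyte, 0 fibroblast, 2 neutrophil and 1 leukocyte marker, beside 13.2% of all features.

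Integrins are cell surface receptors made of 1 α and 1 β subunit that join the extracellular matrix, or a partner on another cell, to the cytoskeleton. Laminins are cross-shaped trimers of an α, a β and a γ chain and form the sheet of the basement membrane under the epidermis, around vessels, nerves, fat and muscle fibres. In skin, basal keratinocytes hold on to that sheet through integrin α6β4 in hemidesmosomes and through α3β1, both of which bind the epidermal laminin, whose chains include Lama3 and Lamb3. Because α and β subunits pair in many combinations, a transcript level speaks for a subunit and not for a receptor.

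The array reads each gene through probes of 60 bases, and the probes shown here are those whose letters show what kind of molecule is read, or that give a second reading of a gene described below. The Itga2 probe (mm9 chr13:115626714-115626773, minus strand) holds the codons of the GFFKR motif, the membrane-proximal stretch of α subunits, in capitals. The second Itgb1 probe (mm9 chr8:131250081-131255976, plus strand) holds the codons of 2 NPXY motifs, the cytoplasmic sites to which talin and kindlin bind, also in capitals. The remaining probes have no capitals: the dimmer Itga7 probe (chr10:128390852-128390911, plus strand), the second Lamb1 probe (chr12:32012684-32014030, plus strand), a Lamc1 probe (chr1:155077970-155078896, minus strand) and the second Lamb3 probe (chr1:195167088-195169619, plus strand). Coordinates of the Itgb1, Lamb1, Lamc1 and Lamb3 probes span 5896, 1347, 927 and 2532 bases, so each of these probes crosses a splice junction.
Itga2: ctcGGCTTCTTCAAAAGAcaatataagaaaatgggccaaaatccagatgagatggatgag
Itgb1: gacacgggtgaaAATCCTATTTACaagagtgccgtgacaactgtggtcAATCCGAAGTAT
Itga7: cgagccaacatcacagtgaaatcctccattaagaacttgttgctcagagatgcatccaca
Lamb1: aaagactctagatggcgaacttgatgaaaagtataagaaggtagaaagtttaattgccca
Lamc1: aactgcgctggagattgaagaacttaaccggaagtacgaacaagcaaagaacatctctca
Lamb3: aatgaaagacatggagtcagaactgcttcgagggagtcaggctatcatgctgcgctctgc
Read on the probe's own strand in any frame, the GFFKR codons were in 2 of the 97 member probes (Itga2 and Itgad) and in 0.00353% of all probes. The NPXY codons were in 2 member probes, both of Itgb1, and in 0.238% of all probes. These matches describe what the probes read and are not a measure of either protein.

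No integrin or laminin gene passed the genotype test. After Benjamini-Hochberg adjustment over 19744 features in limma, 0 of 36 members had an adjusted p under 0.05, where 0.162% of all features did. At an unadjusted p under 0.05 the count was also 0 of 36, against 13.2% of all features (7.85% higher and 5.37% lower), and 0 of 36 differed by 2-fold or more, against 5.92%. Separation was seen for 3 of 36 genes, whose 3 labelled knockout tumours all lay on one side of the 3 labelled wild-type tumours, against 19.5% of all features (12.1% higher and 7.36% lower): Itga7 and Lamb1 lay lower, and Itgb3bp, the gene that is no subunit, lay higher. Over the 18343 features that cleared background on all 6 arrays, as every member did, 11.6% had an unadjusted p under 0.05. In that set 3.97% differed by 2-fold or more, and 18.5% had genotypes that did not overlap. Of the 36 differences, 19 were above 0 and 17 below, with a median of 0.03 on the log2 scale beside 0.02 over all features.

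**Figure D1:**
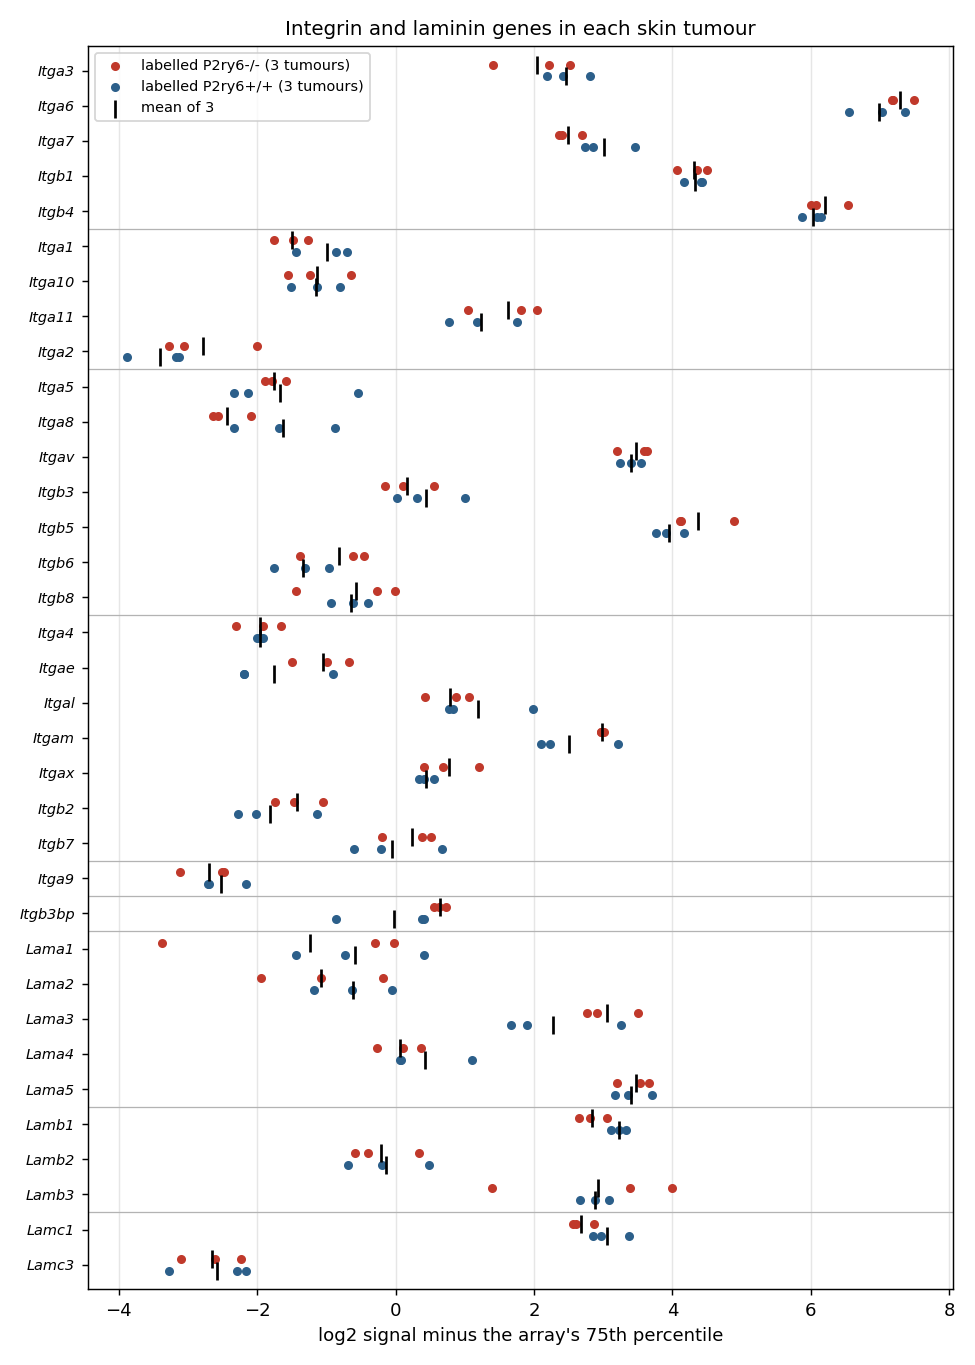
Level of 35 of the 36 tested integrin and laminin genes in each tumour, as log2 signal minus the array's 75th percentile on the x axis, with genes grouped by role down the page; red points are the 3 labelled P2ry6-/- tumours, blue points the 3 labelled P2ry6+/+ tumours and black bars the means of 3. The groups overlap in all but 3 genes, and levels of different genes come from different probes and cannot be set against each other.

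The differences were not small for the array, but tumours of 1 genotype differed among themselves by as much. The median size of a member's difference, sign dropped, was 0.39 log2 units, against 0.20 over the 18343 features that cleared background on all 6 arrays, as all 36 members did. The median SD within the labelled knockout tumours was 0.36 for the members and 0.20 for those features, and within the labelled wild-type tumours it was 0.41 for the members and 0.26 for those features (n = 3 tumours each). The widest spreads were 1.86 for Lama1 among the labelled knockout tumours and 0.98 for Itga5 among the labelled wild-type tumours. The narrowest were 0.03 for Itgam among the labelled knockout tumours and 0.04 for Itga4 among the labelled wild-type tumours.

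**Figure D2:**
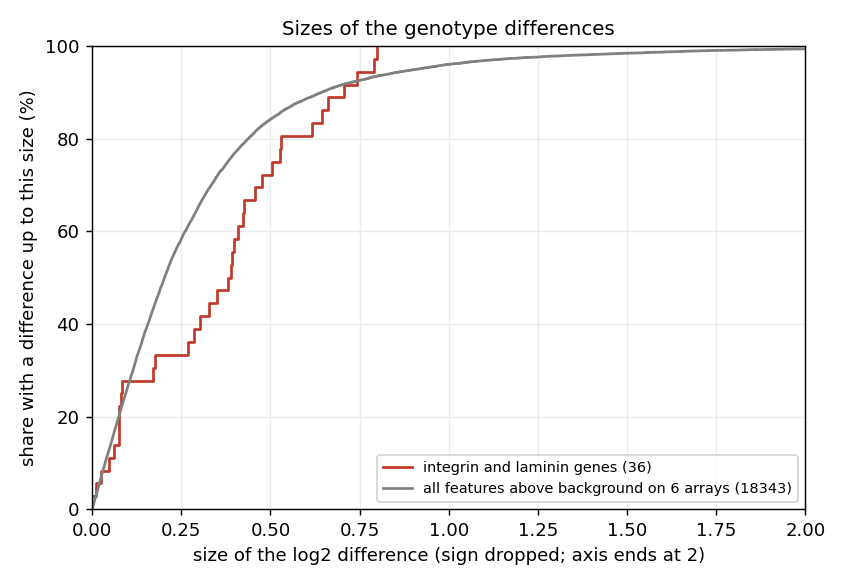
Cumulative share (y axis, percent) of genes with a genotype difference up to the size on the x axis (log2 units, sign dropped); the red steps are the 36 integrin and laminin genes and the grey line the 18343 features above background on all 6 arrays. The red steps lie to the right of the grey line in the middle of the range (medians 0.39 and 0.20) and end at 0.80, while the grey line goes on beyond 2.

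The laminin-binding integrins comprised Itga3, Itga6, Itga7, Itgb1 and Itgb4, of which 2 averaged higher and 3 averaged lower in the labelled knockout group; the differences ran from -0.53 to 0.30. Itga6, the α subunit of the hemidesmosome receptor, read 7.19, 7.18 and 7.48 in the labelled knockout tumours, against 7.03, 6.55 and 7.36 in the labelled wild-type tumours (difference 0.30, SE 0.24, limma adjusted p = 0.642). Its partner Itgb4 read 6.01, 6.08 and 6.53 in the labelled knockout tumours, against 6.15, 5.88 and 6.09 in the labelled wild-type tumours (difference 0.17, SE 0.19, limma adjusted p = 0.752). For both subunits of α6β4 the third labelled knockout tumour was highest and the second labelled wild-type tumour lowest, and the groups overlapped. The basal keratinocyte markers, whose cells carry this receptor, summed to 10.60 to 10.86 in the labelled knockout tumours and 10.62 to 10.68 in the labelled wild-type tumours (log2 of the summed level). Most of that sum came from Krt14 and Krt5. The other markers of the list went both ways: Col17a1 differed by 0.64 with no overlap, and Krt15 by -1.17 and Trp63 by -0.18, both with overlap.

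Itgb1, the β subunit shared by many matrix receptors, stood at 4.35, 4.07 and 4.5 in the labelled knockout tumours, against 4.16, 4.43 and 4.41 in the labelled wild-type tumours. Its difference was -0.03 with a 95% limma interval of -0.45 to 0.40 (adjusted p = 0.968), and the probe over its NPXY codons gave -0.05. Itga3, the α subunit of the keratinocyte receptor α3β1, stood at 2.21, 1.41 and 2.52 in the labelled knockout tumours, against 2.19, 2.80 and 2.41 in the labelled wild-type tumours (difference -0.42, SE 0.32, limma adjusted p = 0.624). The second labelled knockout tumour was the lowest for both Itgb1 and Itga3, and for Itga3 the other two labelled knockout tumours lay within the labelled wild-type range. Without it the Itga3 difference was -0.10.

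Itga7, the α subunit of the laminin receptor of muscle fibres, was the integrin gene whose genotypes did not overlap. It read 2.40, 2.37 and 2.69 in the labelled knockout tumours, against 2.86, 2.74 and 3.46 in the labelled wild-type tumours (difference -0.53, SE 0.23, limma adjusted p = 0.391). The dimmer probe printed above gave -3.0, -3.32 and -2.64 in the labelled knockout tumours, against -2.53, -2.56 and -2.24 in the labelled wild-type tumours. That difference, -0.54, again came with no overlap. Both readings put the third labelled wild-type tumour highest. Skeletal muscle markers summed to 0.24, -0.46 and -0.07 in the labelled knockout tumours, against 3.36, 7.89 and 4.91 in the labelled wild-type tumours, and 6 of the 10 failed to clear background in all 3 labelled knockout tumours. Pericyte and smooth muscle markers, also 6 of 6 lower, summed to 4.45 to 4.93 in the labelled knockout tumours and 4.83 to 5.42 in the labelled wild-type tumours, and the part of either marker list in the Itga7 values was not tested. In whole tumours, fewer cells of a type and less RNA per cell cannot be told apart.

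Of the epidermal laminin chains, Lama3 had a higher mean in the labelled knockout tumours and Lamb3 nearly equal means. Lama3, the α chain of this trimer, read 2.77, 2.91 and 3.50 in the labelled knockout tumours, against 1.66, 3.26 and 1.89 in the labelled wild-type tumours (difference 0.79, SE 0.44, limma adjusted p = 0.505). The third labelled knockout tumour was highest, and the second labelled wild-type tumour reached the labelled knockout range while the other two labelled wild-type tumours lay below it. Without that second labelled wild-type tumour the Lama3 difference was 1.28 (limma adjusted p = 0.114).

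Lamb3, the β chain, read 1.39, 3.38 and 4.0 in the labelled knockout tumours, against 2.89, 2.66 and 3.09 in the labelled wild-type tumours (difference 0.05, SE 0.63, limma adjusted p = 0.982). The first labelled knockout tumour was the lowest of all 6 and the third the highest, so the labelled knockout SD of 1.36 exceeded the labelled wild-type SD of 0.21. At the second Lamb3 probe, which crosses a splice junction, that first tumour was not set apart: the labelled knockout tumours read 2.18, 2.23 and 2.94 and the labelled wild-type tumours 1.76, 2.72 and 2.05. The wide spread at Lamb3 was thus seen at 1 of 2 probes, while the third labelled knockout tumour was highest at both.

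Among the other laminin α chains, 3 of 4 had lower means in the labelled knockout tumours. Lama4, the chain of vessel walls, read 0.37, 0.11 and -0.27 in the labelled knockout tumours, against 0.08, 1.11 and 0.07 in the labelled wild-type tumours (difference -0.35). Lama2, the chain around muscle fibres and peripheral nerve, read -1.08, -0.18 and -1.95 in the labelled knockout tumours, against -0.62, -0.05 and -1.18 in the labelled wild-type tumours (difference -0.46). Both were highest in the second labelled wild-type tumour, and the genotypes overlapped at these brightest probes. At a second Lama4 probe they did not overlap: the labelled knockout tumours read -1.89, -1.80 and -2.04 and the labelled wild-type tumours -1.70, -1.11 and -1.57. That difference was -0.45 (limma adjusted p = 0.416). Lama1, a chain best known from embryonic basement membranes, read -0.30, -3.37 and -0.02 in the labelled knockout tumours, against 0.41, -0.73 and -1.44 in the labelled wild-type tumours. Its mean difference of -0.64 came from the second labelled knockout tumour, and without that tumour it was 0.43. Lama5, a widespread chain of epithelial and vascular basement membranes, ranged from 3.21 to 3.67 in the labelled knockout tumours and 3.17 to 3.70 in the labelled wild-type tumours. At the brightest probes, limma adjusted p-values of these 4 genes ran from 0.703 to 0.928.

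Lamb1 and Lamc1, the β and γ chains shared by most laminins outside the epidermal one, were lower by similar amounts in the labelled knockout tumours. Lamb1 read 2.81, 2.65 and 3.05 in the labelled knockout tumours, against 3.23, 3.12 and 3.33 in the labelled wild-type tumours (difference -0.39, SE 0.17, 95% interval -0.79 to 0.01, limma adjusted p = 0.383). No labelled knockout tumour reached the lowest labelled wild-type one, and this was the smallest p among the 36 genes. The other two tested Lamb1 probes gave differences of -0.35 and -0.38, the first of them also with no overlap. Lamc1 read 2.87, 2.56 and 2.61 in the labelled knockout tumours, against 2.85, 3.37 and 2.96 in the labelled wild-type tumours (difference -0.38, SE 0.19, limma adjusted p = 0.456). Its first 2 probes share 58 of 60 bases and are 1 reading, and the separate probe printed above gave -0.32. At the brightest Lamc1 probe the first labelled knockout tumour overlapped the labelled wild-type range. At the probe that shares its bases the genotypes narrowly did not overlap, with the first labelled knockout tumour at 2.76 and the lowest labelled wild-type tumour at 2.82 (difference -0.41). Endothelial markers, 4 of 5 lower, summed to 1.79 to 2.20 in the labelled knockout tumours and 2.09 to 2.49 in the labelled wild-type tumours, and their part in the Lama4, Lamb1 and Lamc1 values was not tested.

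Lamb2 and Lamc3 differed little in mean. Lamb2, a β chain of vessel, nerve and muscle basement membranes, read -0.39, 0.33 and -0.59 in the labelled knockout tumours, against -0.19, 0.49 and -0.69 in the labelled wild-type tumours (difference -0.08, 95% interval -0.96 to 0.79). Lamc3, a γ chain of restricted expression, read -2.61, -2.24 and -3.10 in the labelled knockout tumours, against -2.16, -2.29 and -3.27 in the labelled wild-type tumours (difference -0.08, 95% interval -0.93 to 0.78). These intervals span changes of either sign, so equal levels were not shown.

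**Figure D3:**
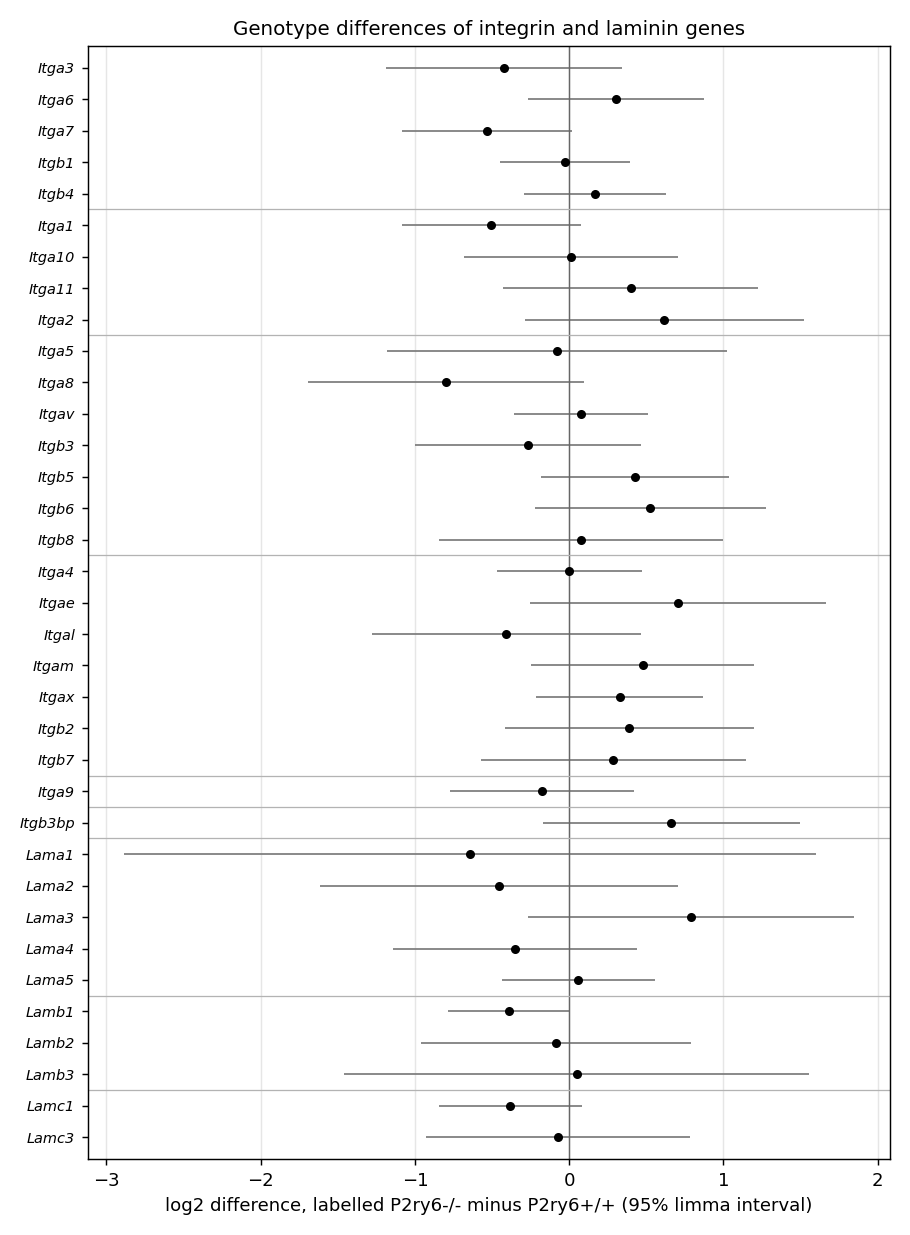
Genotype difference of 35 of the 36 tested integrin and laminin genes (x axis, log2 units, labelled P2ry6-/- minus labelled P2ry6+/+), with points for the estimate, bars for the 95% limma interval from 3 tumours a genotype, and genes grouped by role. Every bar crosses 0; those of Lamb1 and Itga7 end nearest to it, at 0.01 and 0.02, and the bar of Lama1 is the widest.

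Of the 4 collagen-binding integrin genes, 3 had higher means in the labelled knockout tumours and Itga1 a lower one. Itga1, the α1 subunit found on smooth muscle, vessel and stromal cells, read -1.76, -1.26 and -1.48 in the labelled knockout tumours, against -0.70, -1.43 and -0.86 in the labelled wild-type tumours (difference -0.50, SE 0.24, limma adjusted p = 0.436). Itga2, the collagen receptor subunit of keratinocytes and platelets, read -3.27, -3.06 and -2.01 in the labelled knockout tumours, against -3.88, -3.13 and -3.18 in the labelled wild-type tumours (difference 0.62, SE 0.38, limma adjusted p = 0.540). The highest Itga2 value was that of the third labelled knockout tumour, the one that was also highest for Itga6, Itgb4, Lama3 and Lamb3. Itga11, a subunit of fibroblasts, read 1.81, 2.05 and 1.04 in the labelled knockout tumours, against 1.75, 1.18 and 0.77 in the labelled wild-type tumours (difference 0.40, limma adjusted p = 0.672). Fibroblast markers, 6 of 6 higher, summed to 8.67, 9.32 and 8.11 in the labelled knockout tumours, against 8.24, 8.71 and 7.02 in the labelled wild-type tumours, and their part in the Itga11 values was not tested. Itga10, a subunit best known from cartilage, read -1.55, -0.64 and -1.23 in the labelled knockout tumours, against -1.51, -1.14 and -0.81 in the labelled wild-type tumours (difference 0.01).

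Receptors of the fibronectin, vitronectin and latent TGF-β kind gave 4 higher and 3 lower means among 7 genes. Itga8, whose product binds nephronectin and is found on smooth muscle and mesenchymal cells, had the largest difference of all 36 genes in the main fit. It read -2.09, -2.63 and -2.56 in the labelled knockout tumours, against -0.88, -2.33 and -1.68 in the labelled wild-type tumours (difference -0.80, SE 0.37, limma adjusted p = 0.423), with the first labelled wild-type tumour highest and the second inside the labelled knockout range. With normexp background correction the Itga8 difference was -0.39, smaller in size than that of Lama3 (0.75), so this ranking depends on the processing. Itgb6, the epithelial partner of αv that activates latent TGF-β, read -1.38, -0.61 and -0.45 in the labelled knockout tumours, against -1.30, -0.96 and -1.76 in the labelled wild-type tumours (difference 0.53, limma adjusted p = 0.531). Itgb5, a vitronectin receptor subunit, read 4.10, 4.89 and 4.12 in the labelled knockout tumours, against 3.91, 4.17 and 3.77 in the labelled wild-type tumours (difference 0.43, limma adjusted p = 0.533). The second labelled knockout tumour held the highest Itgb5 value, and the other two labelled knockout tumours lay just below the highest labelled wild-type one. Itgb3, the β subunit of platelets, osteoclasts and activated endothelium, read -0.15, 0.56 and 0.11 in the labelled knockout tumours, against 0.30, 1.00 and 0.01 in the labelled wild-type tumours (difference -0.27, limma adjusted p = 0.753). Itgav, Itga5 and Itgb8 differed by -0.08 to 0.08 at their brightest probes. A second, dimmer Itgav probe gave 0.42 with no overlap of the genotypes (limma adjusted p = 0.449). Itga5, the fibronectin receptor subunit, had 1 tumour apart, the second labelled wild-type one at -0.55 beside -2.13 and -2.34 in its group, while the labelled knockout tumours lay between -1.89 and -1.58. Without it the Itga5 difference was 0.48 in place of -0.08.

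Leukocyte integrins had 5 higher and 2 lower means among 7 genes, with a median difference of 0.33. Itgam, the α subunit of Mac-1 on neutrophils and macrophages, read 2.98, 2.97 and 3.02 in the labelled knockout tumours, against 2.09, 3.21 and 2.23 in the labelled wild-type tumours (difference 0.48, SE 0.30, limma adjusted p = 0.554). Itgb2, the β subunit of Mac-1 and of LFA-1, read -1.74, -1.04 and -1.47 in the labelled knockout tumours, against -2.02, -1.13 and -2.27 in the labelled wild-type tumours (difference 0.39, SE 0.34, limma adjusted p = 0.669). The second labelled wild-type tumour was as high as the labelled knockout tumours for both genes and the other two were lower. Without it the differences were 0.83 for Itgam and 0.73 for Itgb2. Itgae, the αE subunit of T cells that reside in epithelium, read -0.98, -0.67 and -1.49 in the labelled knockout tumours, against -2.18, -0.90 and -2.18 in the labelled wild-type tumours (difference 0.70, SE 0.40, limma adjusted p = 0.511), again with the second labelled wild-type tumour apart from its group, and 1.13 without that tumour. Itgax, the CD11c subunit of dendritic cells, read 0.42, 1.2 and 0.68 in the labelled knockout tumours, against 0.42, 0.56 and 0.34 in the labelled wild-type tumours (difference 0.33, limma adjusted p = 0.585).

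The general leukocyte markers, 4 of 4 higher, summed to 3.59 to 3.81 in the labelled knockout tumours and 3.17 to 3.42 in the labelled wild-type tumours. Neutrophil markers, 6 of 6 higher, summed to 10.1 to 10.2 in the labelled knockout tumours and 9.32 to 9.80 in the labelled wild-type tumours. Most of that sum came from S100a8 and S100a9, so it mainly reads those 2 genes, and which cells carried their transcripts was not tested. They were the only 2 of the 6 whose genotypes did not overlap, against 19.5% of all features. For Ly6g, Csf3r, Retnlg and Cxcr2 the genotypes overlapped. T cell markers averaged higher in 5 of 5, dendritic cell markers in 3 of 4, macrophage and monocyte markers in 4 of 7, mast cell markers in 2 of 6 and B cell markers in 0 of 2. The macrophage and monocyte markers summed to 4.18 to 4.22 in the labelled knockout tumours and 3.64 to 4.38 in the labelled wild-type tumours. The part of any of these lists in the leukocyte integrin values was not tested. Itgb7, the partner of Itgae, differed by 0.29, Itgal, the α subunit of LFA-1, by -0.41, and Itga4, the VCAM-1 receptor subunit, by less than 0.01, all 3 with overlapping groups. A second Itgal probe gave the other sign, 0.32, also with overlapping groups. Itga9, the tenascin and osteopontin receptor subunit, read -2.48, -2.50 and -3.11 in the labelled knockout tumours, against -2.71, -2.16 and -2.70 in the labelled wild-type tumours (difference -0.18, limma adjusted p = 0.807). For Itgb3bp the labelled knockout tumours read 0.73, 0.62 and 0.56 and the labelled wild-type tumours 0.38, -0.85 and 0.41, so its difference of 0.66 rested on the second labelled wild-type tumour and was 0.25 without it.

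**Figure D4:**
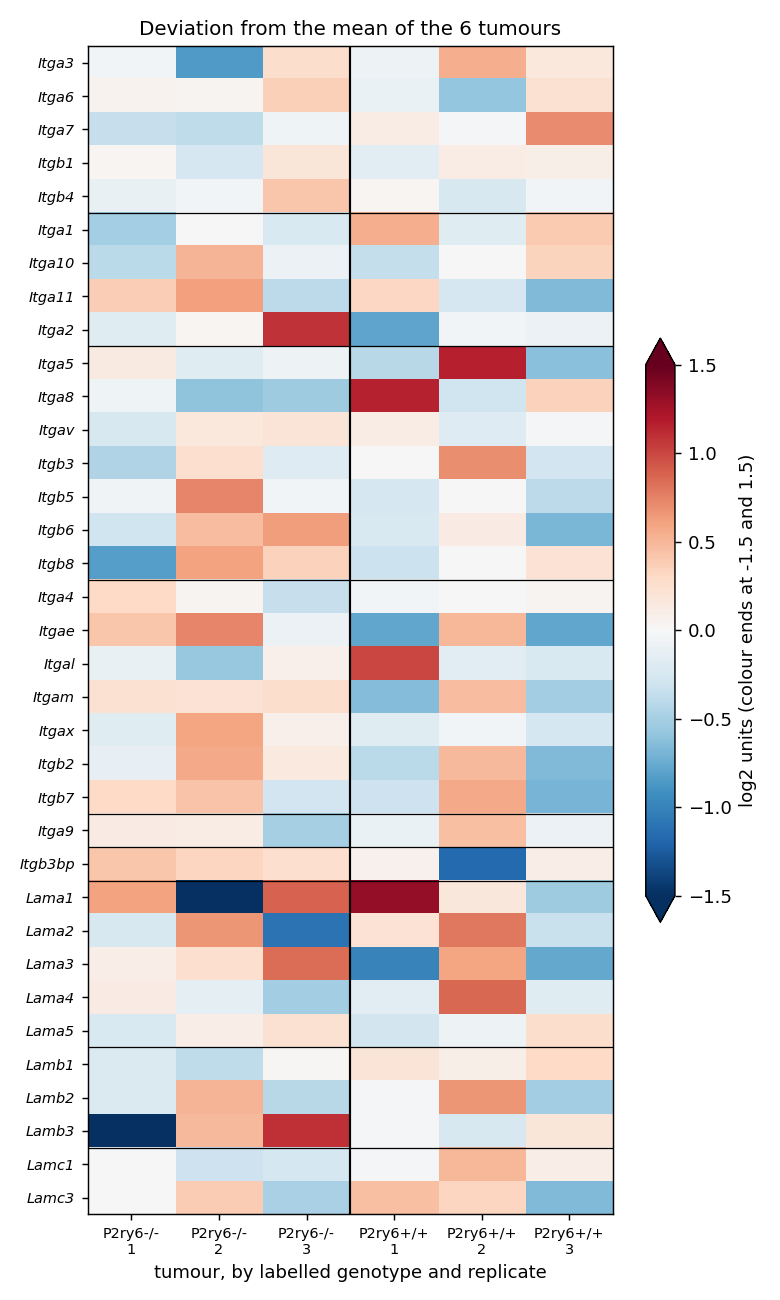
Deviation of 35 of the 36 tested genes in each tumour from the gene's mean over the 6 tumours, in log2 units by colour (red above, blue below, colours ending at -1.5 and 1.5), with the 3 labelled P2ry6-/- tumours left of the 3 labelled P2ry6+/+ tumours and genes grouped by role. The second labelled P2ry6+/+ column holds the highest value of 10 subunit genes, and the third labelled P2ry6+/+ column holds the lowest value of 10.

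Which tumour was highest or lowest varied from gene to gene, and the shares that follow were not tested. Over the 35 subunit genes, the highest value lay in the third labelled knockout tumour for 9 genes (25.7%), against 12.9% of all features, and in the second labelled wild-type tumour for 10 (28.6%), against 14.3% of all features. The lowest value lay in the second labelled knockout tumour for 8 (22.9%, against 16.2% of all features), in the third labelled wild-type tumour for 10 (28.6%, against 21.0%) and in the second labelled wild-type tumour for 2 (5.71%, against 25.5%). The second labelled wild-type tumour also held the highest skeletal muscle, hair follicle and sebaceous gland marker sums of the 6 tumours, at 7.89, 8.21 and 6.82. Leaving it out moved the counts more than leaving out any other tumour: 9 members then had an unadjusted p under 0.05, against 18% of all features, with Itga7, Itga1 and Itga8 lower and 6 genes, among them Itgae, Itgam, Itgb2, Itga5 and Lama3, higher in the labelled knockout tumours. None of the 9 passed adjustment, and the smallest limma adjusted p was 0.0854, for Itgam. With each of the other 5 tumours left out in turn, between 0 and 2 members had an unadjusted p under 0.05, against 8.21 to 12.1% of all features.

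Reading every probe on its own gave 60 tested member probes, of which 0 had a limma adjusted p under 0.05. Of these 60 probes, 4 had an unadjusted p under 0.05, each of a different gene, against 12.7% of all 29720 probes. Itgb8, the other αv partner that activates latent TGF-β, was the clearest of these: its second probe (mm9 chr12:120426719-120426778) read -0.56, -0.56 and -0.82 in the labelled knockout tumours, against -1.64, -1.08 and -1.72 in the labelled wild-type tumours (difference 0.83, SE 0.22, limma adjusted p = 0.231). Its brightest probe (chr12:120396593-120396652) read -1.44, -0.01 and -0.26 in the labelled knockout tumours, against -0.94, -0.62 and -0.39 in the labelled wild-type tumours (difference 0.08). The 2 Itgb8 probes thus disagreed on whether the genotypes overlapped, and which of them follows the transcript was not tested.

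The second Lama3 probe separated the genotypes where the brightest did not, with 0.46, 0.55 and 1.13 in the labelled knockout tumours, against -0.33, 0.24 and -0.03 in the labelled wild-type tumours (difference 0.75, limma adjusted p = 0.299). The dimmest of the 5 tested Itga1 probes gave -1.76, but it entered the test only through the labelled wild-type tumours. It was well above background in 1 of 3 labelled knockout tumours, so this value depends on signals near background. The fourth gene was Itga7, at the dimmer probe described above. Several tested probes were available for 15 genes, and their differences had the same sign in 12, among them all 5 Itga6 probes (0.04 to 0.41). They differed in sign for Itga3, Itgal and Itgb4, whose brightest probes gave -0.42, -0.41 and 0.17.

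**Figure D5:**
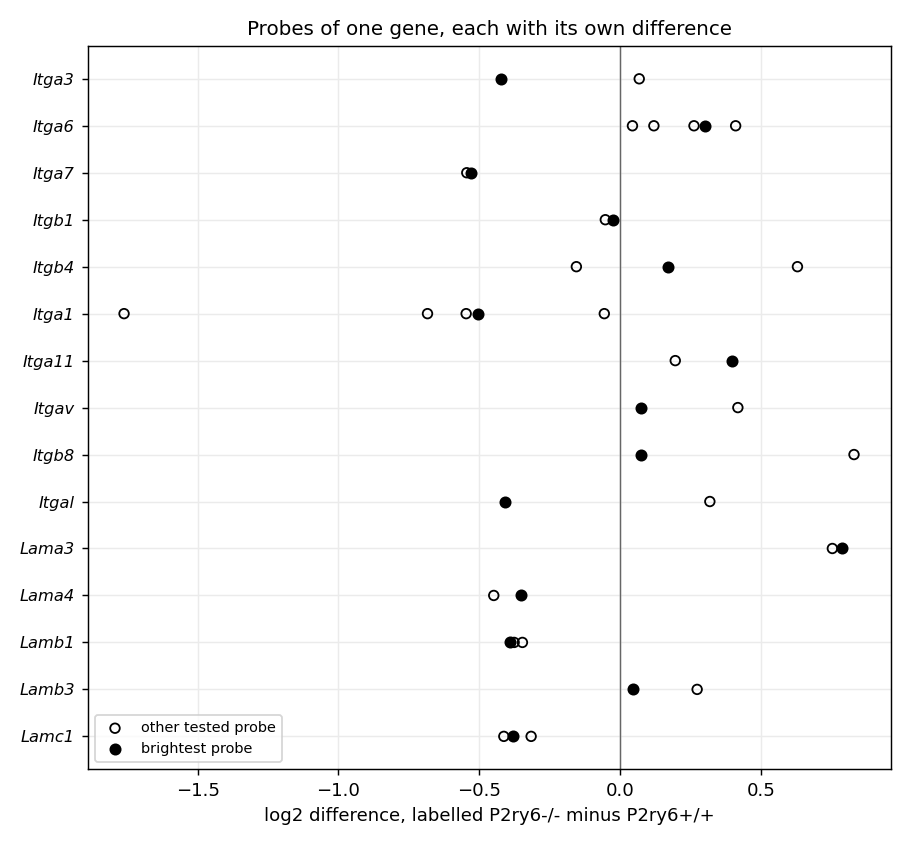
Genotype difference of each tested probe (x axis, log2 units, labelled P2ry6-/- minus labelled P2ry6+/+) for the 15 genes with several tested probes; filled circles are the brightest probe of a gene and open circles its other probes. Probes of Lamb1, Lamc1, Lama3 and Itga7 lie close together, while those of Itgb8 (0.08 and 0.83), Itga1 and Itgb4 are far apart.

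Genes that work beside the subunits were read from 5 lists with 78 tested genes, of which 0 had a limma adjusted p under 0.05. At an unadjusted p under 0.05 there were 13 of 78 (16.7%), near the 13.2% of all features. In the hemidesmosome and anchoring group, 6 of 7 genes had higher means in the labelled knockout group, and the median difference was 0.14 beside 0.02 for all features. Col7a1, the anchoring fibril collagen under the basement membrane, read 6.35, 7.04 and 6.84 in the labelled knockout tumours, against 5.38, 6.12 and 5.53 in the labelled wild-type tumours (difference 1.07, SE 0.27, limma adjusted p = 0.229). Col17a1, the transmembrane collagen of the hemidesmosome and a partner of α6β4, read 4.52, 5.03 and 5.15 in the labelled knockout tumours, against 4.22, 4.08 and 4.48 in the labelled wild-type tumours (difference 0.64, SE 0.22, limma adjusted p = 0.306). The genotypes did not overlap in either gene, whereas those of Itga6 and Itgb4 did. The remaining 5 genes of the group, Dst, Krt5, Cd151, Plec and Krt14, differed by -0.07 to 0.20.

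Other basement membrane genes were split, with 8 of 14 higher. The smallest p-values belonged to Papln (difference 1.48), Col4a6, a chain of epithelial collagen IV (difference 0.70), and Fras1, which links epidermis to dermis (difference 0.37), with limma adjusted p-values of 0.213 to 0.339. Col4a1 and Col4a2, the common collagen IV chains that share a sheet with laminins and were picked out after their values were seen, differed by -0.70 and -0.62, each with overlapping groups. Of 6 laminin receptors that are not integrins, 5 had lower means. Bcam, a receptor for the Lama5 chain, read 1.08, 0.08 and 0.70 in the labelled knockout tumours, against 2.29, 1.87 and 1.12 in the labelled wild-type tumours (difference -1.14, limma adjusted p = 0.297).

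Among 30 genes of integrin adaptors and signalling, 13 had higher and 17 lower means, 4 had an unadjusted p under 0.05, against 13.2% of all features, and 7 had genotypes that did not overlap, against 19.5%. The 3 with the smallest p were all lower: Tns3, a tensin that links β tails to actin, read 0.32, 0.34 and 0.49 in the labelled knockout tumours, against 1.24, 1.36 and 1.92 in the labelled wild-type tumours (difference -1.12, SE 0.21, limma adjusted p = 0.162). Tln2, a talin, differed by -0.61 (limma adjusted p = 0.250), and Ilk, the integrin-linked kinase, by -0.44 (limma adjusted p = 0.335). Of 21 ligands other than laminins, 10 had higher and 11 lower means. Ccn2, a matricellular protein, differed by -1.31, Spp1, the αv and α9 ligand osteopontin, by -1.81, and Adam15 by 0.42, with limma adjusted p-values of 0.231, 0.294 and 0.368.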

How the data were processed

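Labelled cRNA of 6 tumours was hybridised to 1-colour arrays on 1 slide. The authors deposited, per the file headers, scanner output with a background-corrected intensity per spot (the submitters' processing notes name Agilent Feature Extraction 10.7.1.1), and a log2 value table, used as an alternative. From the intensities, spots flagged as outliers (68 to 184 an array) were left out, spots of a probe averaged, and log2 values set relative to each array's 75th percentile. A probe was kept if all arrays of either genotype put it well above background. The probe with the highest mean over the 6 arrays stood for a gene, and names followed RefSeq where it held the accession or symbol. limma 3.58.1 (R 4.3.3) tested labelled knockout minus wild-type with Benjamini-Hochberg adjustment over 19744 features, threshold 0.05. The script was tested on simulated data. Members and lists were chosen with earlier results of these data known. Values in every tumour are given for up to 4 genes of smallest p a role group, and for the subunits of α6β4 and α3β1, Lama3 and Lamb3; other lists give up to 3 genes. One tested member is counted but not reported here. Levels of different genes were not set against each other beyond the marker sums, which add signals over probes and so follow the brightest ones. Coordinates are mm9, per the file headers. Intensities carry no counting depth; signal over background sets their precision. Alternatives covered background correction, scaling, probe choice, moderation, array weights, blocks and leaving out each tumour.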

Additional observations from a re-analysis of the deposited data

How the results depend on the processing

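No integrin or laminin gene had a limma adjusted p under 0.05 under any alternative, and the smallest adjusted p was 0.0854 (without the second labelled wild-type tumour). The number of members at an unadjusted p under 0.05, 0 as reported, is given here with the share of all features in the same fit: 2 with normexp background correction (13.6%), 2 with median centring (12.1%), 1 where only probes clearing background on all 6 arrays were kept (12.3%), 2 when a gene's probes were averaged (13.4%), 2 with trend and robust moderation (13%), 8 with array weights (19.7%), 5 with the slide column blocked (12.5%) and 4 with every probe its own feature (12.7% of probes), an alternative added after seeing the data. Leaving out 1 tumour at a time gave 0 to 9 (8.21 to 18%). Over the whole array, 32 features passed adjustment as reported, against 10 with normexp, 18 without the dim-probe filter, 5 where all 6 arrays had to clear background, 89 under array weights, 21 with the slide column blocked and 10 to 120 with 1 tumour left out. The replicate numbers are not stated to mark a shared litter or day, so they were not taken to pair tumours. Same-numbered tumours correlated at 0.0619 to 0.256 in their deviations, and 5 of 6 tumours correlated best with their own number. With the replicate number as a block, 3 members and 14.6% of all features had an unadjusted p under 0.05 and 5 features passed adjustment. The members' median difference lay between -0.02 and 0.20 over all alternatives.

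Over the alternatives that gave 1 value a gene, the direction held for 23 genes and turned in at least 1 alternative for 13. The cause was not tested. Some of the held values were very small, with Itgb7 down to 0.0003 and Lama4 up to -0.0039. These counts leave out the fit with every probe its own feature, in which probes of Itga3, Itgal and Itgb4 differed in sign. With normexp, Itga4 was 0.0485, Itga9 0.032, Lama5 -0.0362 and Lamc3 0.0608. Itga10 was -0.0039 with quantile normalization, -0.0306 with median centring, -0.0042 in the authors' value table and -0.0148 with the slide column blocked. With array weights, Itgb1 was 0.0756 and Itga5 0.15. With 1 tumour left out at a time, the difference ranged from -0.12 to 0.0943 for Itgb1, -0.24 to 0.22 for Itga10, -0.20 to 0.51 for Itgb8, -1.25 to 0.43 for Lama1, -0.49 to 0.81 for Lamb3, -0.0029 to 0.21 for Itgav, -0.15 to 0.17 for Itga4, -0.29 to 0.0303 for Itga9, -0.0613 to 0.20 for Lama5, -0.36 to 0.23 for Lamb2, -0.42 to 0.15 for Lamc3, -0.41 to 0.48 for Itga5 and -0.48 to 0.0122 for Itgb3. The authors' log2 value table had a median of 4.97 in each column and correlated at 0.999 or more with the same array's scanner values; how it was normalized is unknown here. Slide row nearly follows genotype and cannot be told apart from it, and 3 arrays a genotype limit what could be called.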
